A study of Homo sapiens with 4 samples.

Results

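The genes described here are 35 chaperones, folding enzymes, degradation factors and stress sensors of the endoplasmic reticulum (ER), taken as a list of symbols. All 35 were found among the 61533 gene identifiers of the count table, and 34 were among the 15950 genes with enough counts to be tested. They were read in Caki-1, an established human renal cell carcinoma line, after lentiviral transduction with either a control sequence (shControl, genotype labelled WT) or a short hairpin RNA against TFE3 (shTFE3), with 2 libraries in each arm. TFE3 belongs to the MiT/TFE transcription factors, best known for switching on lysosome and autophagy genes. Cells of both arms were divided into dishes 24 h after infection, received puromycin at 1 µg/ml 12 h later and were collected after 3 days of selection, and poly(A)-selected RNA was read as paired 150-base reads. The labels do not say how many hairpin sequences were used, nor whether the 2 libraries of an arm came from separate infections. The p-values therefore measure only the spread between these libraries, which may be technical. No ER stressor is named in the labels, so the values are read as those of cells under selection without an added stressor.

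Proteins bound for secretion or for membranes fold in the ER lumen, where BiP (the product of HSPA5) and GRP94 (HSP90B1) hold unfolded chains, calreticulin and calnexin hold sugar-bearing chains, and protein disulfide isomerases form and rearrange disulfide bonds. When unfolded chains accumulate, the sensors IRE1 (ERN1), PERK (EIF2AK3) and ATF6 start the unfolded protein response: IRE1 splices XBP1 mRNA, PERK slows translation, and ATF6 is cut in the Golgi to free a transcription factor. Spliced XBP1 and cleaved ATF6 act on the ER stress response elements of chaperone genes, and ER-associated degradation (ERAD) returns chains that fail to fold to the proteasome. Gene-level counts show neither XBP1 splicing, ATF6 cleavage nor PERK activity.

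Because many of these genes are classic targets of ATF6 and XBP1, their promoters were read for the elements by which the response is known. The ER stress response element, ERSE, was searched as CCAAT and CCACG with 9 bases between them, and ERSE-II as ATTGG and CCACG with 1 base between them, on both strands. Windows ran from 250 bases before to 50 bases after each transcription start in RefSeq (assembly GRCh38.p14), and 31 of the 35 members matched. DERL1, DERL3, PDIA3 and SEC24D were not matched. An ERSE stood in 8 members and an ERSE-II in 3 others, that is in 10 and 3 of the members' 38 windows. Of all 35116 promoter windows, the members' own included, 0.0769% and 0.0541% held them. These elements were first described on promoters of genes such as HSPA5, HSP90B1 and CALR, so their presence here is background and not a finding of this experiment. Each is printed 5′ to 3′ on the strand on which it reads in this orientation, with the fixed letters in capitals and the spacer in lower case. The fixed letters are the same in every element of a kind because the search required them, and only the spacers vary.
HSPA5: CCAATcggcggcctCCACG
CALR: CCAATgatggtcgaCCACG
HSP90B1, distal: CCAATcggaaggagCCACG
HSP90B1, proximal: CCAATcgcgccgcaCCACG
PDIA6: CCAATgagccgcagCCACG
ERO1B: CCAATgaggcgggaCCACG
CANX: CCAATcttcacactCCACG
XBP1: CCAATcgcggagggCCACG
CRELD2: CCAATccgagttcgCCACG
HYOU1: ATTGGaCCACG
HERPUD1: ATTGGgCCACG
SDF2L1: ATTGGtCCACG
The 5 genes from HSPA5 to ERO1B fell, and the 6 from CANX to SDF2L1 were not called. HYOU1 holds the printed element at 2 places.

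The HSPA5 and CALR promoters are shown in full up to the first exon base, since they carry the same element at opposite ends of the window and both genes fell. The HSPA5 stretch lies at chr9:125241344-125241593 on the minus strand, from base -250 to base -1 relative to the start, and its ERSE, in capitals, spans bases -66 to -48.
HSPA5: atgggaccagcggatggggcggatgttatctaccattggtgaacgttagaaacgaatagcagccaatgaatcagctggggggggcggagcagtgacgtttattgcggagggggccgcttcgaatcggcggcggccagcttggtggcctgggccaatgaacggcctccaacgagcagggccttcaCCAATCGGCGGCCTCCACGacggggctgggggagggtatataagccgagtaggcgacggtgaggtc
The CALR stretch lies at chr19:12938359-12938577 on the plus strand, from base -250 to base -32. Its ERSE, in capitals, spans bases -225 to -207 and reads on the opposite strand, so that the printed strand shows its complement.
CALR: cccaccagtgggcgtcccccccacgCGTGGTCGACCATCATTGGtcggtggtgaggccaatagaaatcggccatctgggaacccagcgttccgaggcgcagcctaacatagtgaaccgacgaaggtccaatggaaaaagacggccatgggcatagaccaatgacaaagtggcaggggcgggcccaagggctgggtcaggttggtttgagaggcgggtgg

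**Figure D1:**
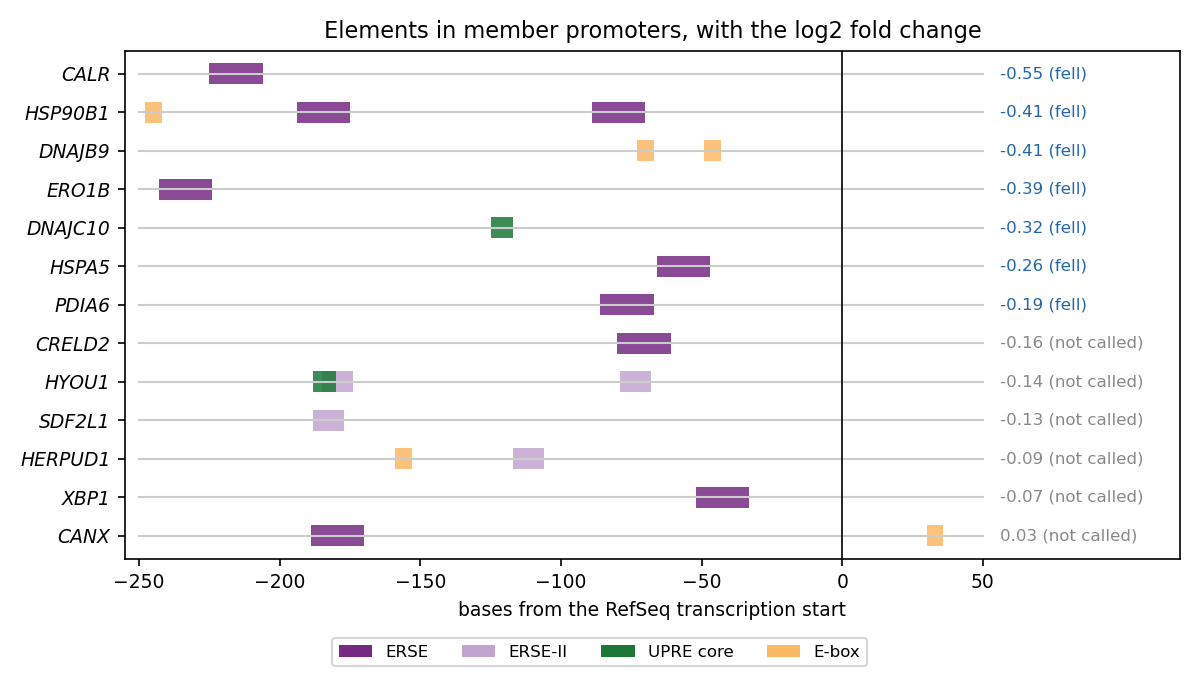
Elements found in the promoter windows of the 13 members that hold an ERSE, ERSE-II, UPRE core or E-box, as bars over the distance in bases from the RefSeq transcription start (1 start per gene), with each gene's log2 fold change (shTFE3 over shControl) at the right. ERSE bars stand beside CALR at -0.55 and beside CANX at 0.03.

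The libraries held between 17270180 and 17742519 counts, and 3 counts corresponded to between 0.167 and 0.176 CPM (counts per 1000000, with library totals scaled by TMM factors). TFE3 itself stood at 131 and 128 CPM in shControl and at 70.1 and 66.9 CPM in shTFE3, 52.9% of the control mean, a partial knockdown. Its log2 fold change was -0.92 (SE 0.062, adjusted p = 5.6e-11, edgeR's quasi-likelihood test with Benjamini-Hochberg adjustment). Of 10 markers of the renal epithelial lineage 7 were tested and PAX2, CA9 and LRP2 were at 0 in every library. Among the tested markers CDH6 fell by 0.55 (adjusted p = 5.95e-07) and KRT18 by 0.28 (adjusted p = 0.00191) on the log2 scale. PAX8, KRT8 and VIM were not called. Nor were EPCAM, with a log2 fold change of -0.77 at only 8 to 21 counts, and CUBN, with one of 0.44. The list summed to between 2177 and 2248 CPM, of which VIM made up 1040 to 1185. The part of these markers in the results below was not tested. Markers of leukocytes summed to at most 1.76 CPM, those of endothelial cells to at most 4.06 CPM and those of fibroblasts to between 19.1 and 19.9 CPM. Those of plasma cells, which carry high chaperone levels, summed to between 180 and 193 CPM, nearly all of it SDC1 (179 to 192 CPM), which epithelial cells also express. Of the other plasma cell markers TNFRSF17 was at 0 in every library, MZB1, JCHAIN and IRF4 held at most 5 counts and IGKC held 14 to 20.

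After TFE3 knockdown, many genes for the folding machinery of the ER lumen fell, and none of the genes for the 3 stress sensors was called. Of the 34 tested members 14 fell (41.2%), 2 rose (5.88%) and 18 were not called, beside 12.9% of all tested genes that fell and 10.3% that rose. The list was chosen with earlier results of these data known, so this comparison is a description and not independent of the data. A call means an adjusted p under 0.05 in edgeR's quasi-likelihood test. The median log2 fold change of the members was -0.13, beside 0.002 over all tested genes. In 19 members both shTFE3 libraries lay below both shControl libraries and in 6 both lay above, beside 30.5% and 29.8% of all tested genes. The changes were small: the called falls ran from -0.55 for CALR to -0.19 for PDIA6 on the log2 scale, and the rises were 0.37 for SYVN1 and 0.44 for CREB3L2. In RNA of a whole culture, fewer cells that express a gene and less RNA per cell cannot be told apart. Abundant genes are called more readily at this depth. Among the 6511 genes with a mean of at least 30 CPM, a level chosen after the values were seen, 18.2% fell and 14.8% rose, and 13 of the 31 members at that level fell.

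**Figure D2:**
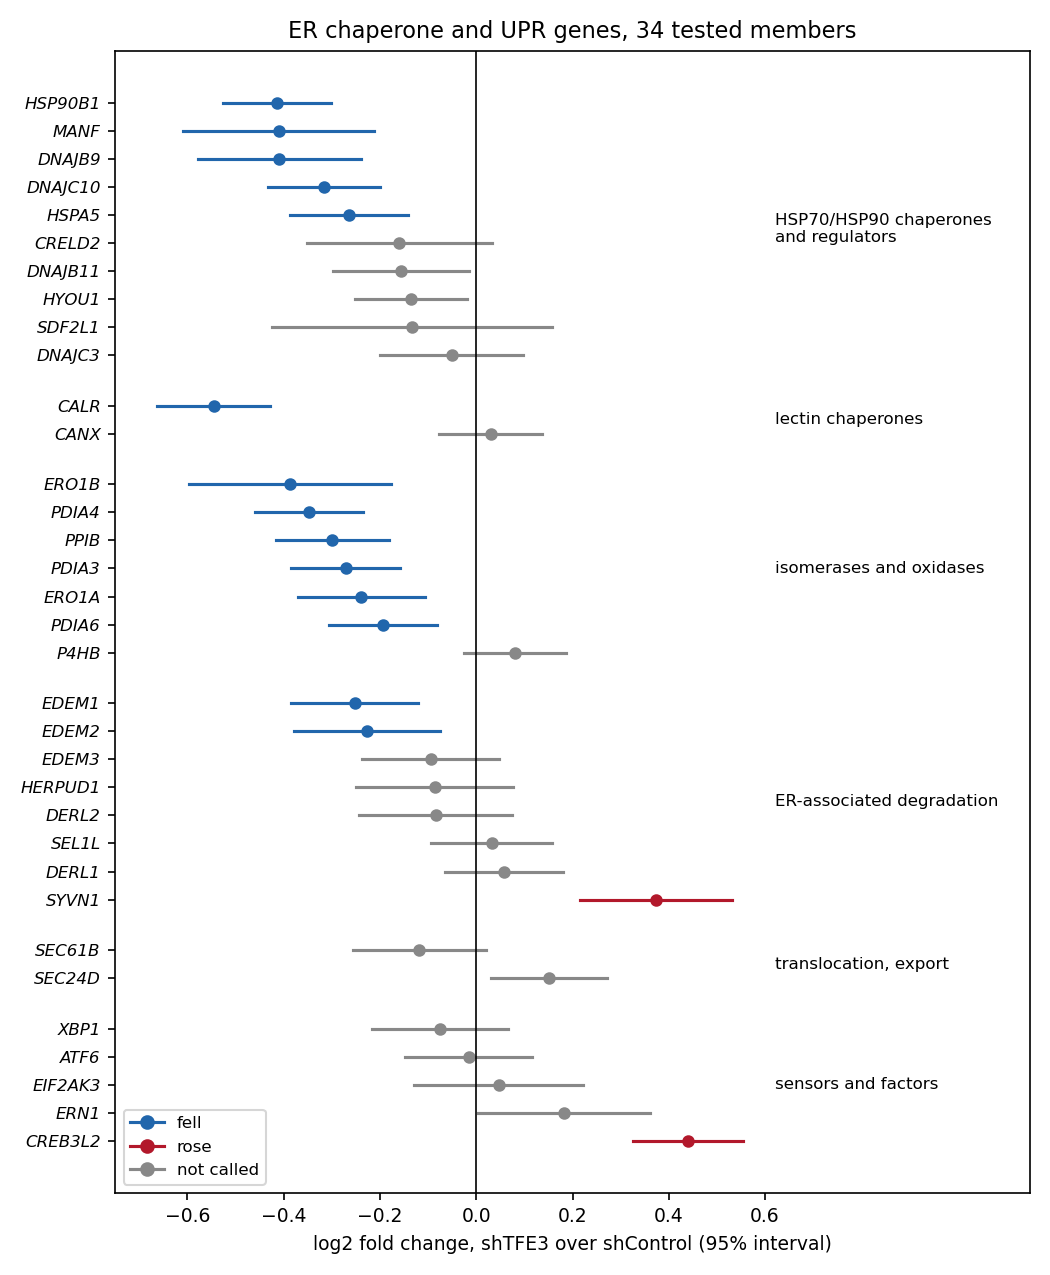
Log2 fold change (shTFE3 over shControl, x axis) of the 34 tested members, grouped by role, as points with 95% intervals of the edgeR fit. All 10 chaperones and regulators in the top group lie below 0, from -0.41 for HSP90B1 to -0.05 for DNAJC3, while no gene among the sensors and factors fell.

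The summed level of the 35 genes was 10059 and 10432 CPM in shControl and 9080 and 9491 CPM in shTFE3, 90.6% of the control mean. Both knockdown sums were lower than both control sums. Fits with 1 library left out called fewer falls, and over all tested genes they called fewer genes too. Such a fit has 1 residual degree of freedom instead of 2, so its lost calls cannot be laid to the library left out. The members' median log2 fold change was -0.165, -0.128, -0.130 and -0.163 without shControl 1, shControl 2, shTFE3 1 and shTFE3 2. HSP90B1, DNAJC10, CALR, PDIA4, PPIB and CREB3L2 kept their call in each of those 4 fits. With no filter on low counts none of the 14 falls was called and CREB3L2 alone rose, and the 15 lost calls had adjusted p between 0.0583 and 0.32 (edgeR). DESeq2 called 12 falls and 2 rises. Replicate 2 of each arm tended to hold more of these transcripts than replicate 1: 28 of 34 members were higher in shControl replicate 2 (82.4%, beside 50.6% of all tested genes), and 24 of 34 were higher in shTFE3 replicate 2 (70.6%, beside 50.1%). The median absolute gap between replicates was 0.07 on the log2 scale in shControl and 0.06 in shTFE3, and the median absolute difference between arms was 0.17. In 11 members the larger gap within an arm exceeded the difference between arms, and none of these 11 was called.

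In the group of BiP, GRP94 and their partners 5 of 10 genes fell, beside 12.9% of all tested genes. All 10 had log2 fold changes below 0, with a median of -0.21. With 1 library left out 2 genes that were not called turned above 0: DNAJC3 without shControl 2 or shTFE3 2 (0.01 and 0.04), and SDF2L1 without shTFE3 1 (0.09). Their summed level was 2523 and 2691 CPM in shControl and 2040 and 2177 CPM in shTFE3, 80.9% of the control mean. The count of falls was 5, 3, 2 and 3 without shControl 1, shControl 2, shTFE3 1 and shTFE3 2 in turn.

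GRP94, the HSP90 of the ER lumen, is encoded by HSP90B1 (ENSG00000166598, chr12:103930107-103953645). It stood at 923 and 975 CPM in shControl and at 690 and 735 CPM in shTFE3. The arms did not overlap, and the log2 fold change was -0.41 (SE 0.054, adjusted p = 2.75e-06, edgeR). HSPA5 (ENSG00000044574, chr9:125234853-125241330) encodes BiP, the lumenal HSP70 that binds the sensors when they are at rest. It stood at 955 and 1044 CPM in shControl and at 783 and 881 CPM in shTFE3, a log2 fold change of -0.26 (SE 0.060, adjusted p = 0.00173, edgeR). The arms did not overlap, but shControl 2 was the highest library and shTFE3 1 the lowest. The log2 fold change was -0.20 without the former and -0.18 without the latter.

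Co-chaperones with a J domain, which stimulate the ATPase of BiP, differed among themselves. DNAJC10 (ERdj5), which also reduces disulfides of chains bound for degradation, stood at 227 and 226 CPM in shControl and at 187 and 177 CPM in shTFE3. Its libraries agreed closely within arms, with a log2 fold change of -0.32 (SE 0.056, adjusted p = 0.000155, edgeR). DNAJB9 (ERdj4), an XBP1 target that returns IRE1 to its resting state, stood at 41.5 and 48.1 CPM in shControl and at 33.1 and 34.4 CPM in shTFE3. It fell by 0.41 on the log2 scale (SE 0.082, adjusted p = 0.000587, edgeR), and the call was lost without either shTFE3 library (adjusted p 0.106 and 0.0915). DNAJB11 (ERdj3) had a log2 fold change of -0.16 and DNAJC3 (p58IPK) one of -0.05, neither called. DNAJC3 overlapped between arms, since shTFE3 1 at 79.1 CPM lay close to the higher control at 79.9 CPM.

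MANF, a secreted ER stress protein that binds BiP, stood at 41.7 and 51.4 CPM in shControl and at 31.4 and 38.6 CPM in shTFE3. The arms did not overlap, but replicates lay 0.30 apart on the log2 scale in each arm, the widest gaps among the called genes of this group. Its log2 fold change was -0.41 (SE 0.096, adjusted p = 0.0025, edgeR), and the call was lost without shControl 2, shTFE3 1 or shTFE3 2 (adjusted p 0.09, 0.278 and 0.0885), with values from -0.25 to -0.57. The nucleotide exchange factor HYOU1, the BiP co-factor SDF2L1 and the ER stress protein CRELD2 had log2 fold changes of -0.14, -0.13 and -0.16 and were not called. SDF2L1 was the shallowest of the tested members, with 138 to 190 counts per library, and its 95% interval ran from -0.42 to 0.16.

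**Figure D3:**
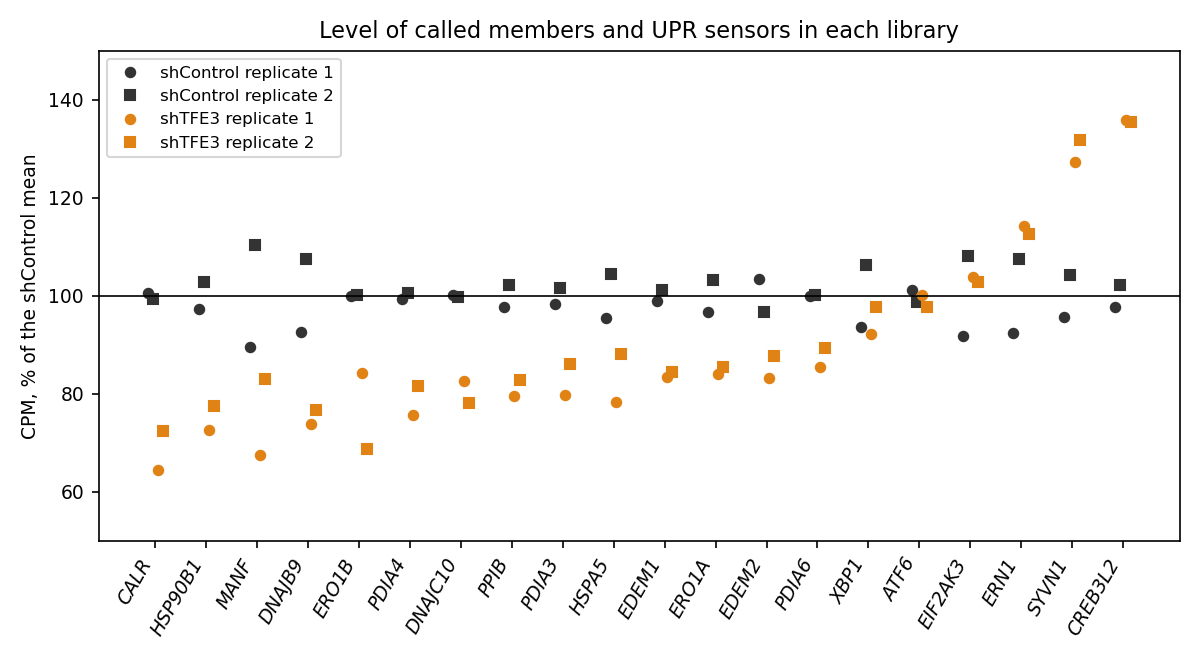
CPM of each library as a percentage of the gene's shControl mean (y axis, starting at 50%) for the 16 called members, the sensors ERN1, ATF6 and EIF2AK3, and XBP1 (x axis). Orange knockdown points lie below both dark control points from CALR to PDIA6, mix with them from XBP1 to EIF2AK3, and lie above them for ERN1, SYVN1 and CREB3L2.

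The 2 lectin chaperones parted. CALR (ENSG00000179218, chr19:12938578-12944489) encodes calreticulin, the soluble lectin that also buffers ER calcium, and had the largest change of all 34 tested members. It stood at 998 and 985 CPM in shControl and at 640 and 719 CPM in shTFE3, 68.5% of the control mean. The arms were far apart relative to their spread, with a log2 fold change of -0.55 (SE 0.057, adjusted p = 8.22e-08, edgeR). CANX, which encodes the membrane-bound homologue calnexin, stood at 1793 and 1894 CPM in shControl and at 1878 and 1887 CPM in shTFE3. The arms overlapped, the log2 fold change was 0.03, and the 95% interval of -0.08 to 0.14 does not meet that of CALR, -0.66 to -0.43. The difference between the genes was not tested. Per length of exon, the shControl levels were 365 CPM per kb for CALR and 296 CPM per kb for CANX.

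Enzymes that form disulfide bonds or turn proline bonds fell in 6 of 7 cases, at a median of -0.27 on the log2 scale. Of all tested genes 12.9% fell, and of those with a mean of at least 30 CPM 18.2% fell. The count of falls was 5, 4, 3 and 3 without shControl 1, shControl 2, shTFE3 1 and shTFE3 2 in turn. PDIA4 (ERp72), a disulfide isomerase, stood at 625 and 632 CPM in shControl and at 476 and 512 CPM in shTFE3. It fell by 0.35 on the log2 scale (SE 0.054, adjusted p = 3.06e-05, edgeR). PPIB, the ER cyclophilin that works on collagen chains, stood at 202 and 211 CPM in shControl and at 164 and 171 CPM in shTFE3. Its fall of -0.30 (SE 0.057, adjusted p = 0.000322, edgeR) and that of PDIA4 kept their call with each library left out.

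PDIA3 (ERp57), which works beside the lectins, stood at 595 and 614 CPM in shControl and at 482 and 520 CPM in shTFE3. Its log2 fold change was -0.27 (SE 0.055, adjusted p = 0.000595, edgeR, and 0.0532 without shTFE3 1). Its processed pseudogene PDIA3P1 held 152 and 148 counts in the controls and 126 and 131 counts in the knockdown libraries, against 8656 to 10464 counts for PDIA3. PDIA6 (P5), which also acts on activated IRE1, had the smallest called fall. It stood at 357 and 358 CPM in shControl and at 306 and 320 CPM in shTFE3, a log2 fold change of -0.19 (SE 0.054, adjusted p = 0.01, edgeR). The call was lost with any 1 library left out, with adjusted p between 0.0563 and 0.0971.

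The oxidases that pass electrons from the disulfide isomerases to oxygen both fell. ERO1A, also known as a hypoxia-induced gene, stood at 87.8 and 93.7 CPM in shControl and at 76.3 and 77.5 CPM in shTFE3, with a log2 fold change of -0.24 (SE 0.064, adjusted p = 0.00755, edgeR). ERO1B, the form known from secretory tissues such as the pancreas, stood at 23.2 and 23.2 CPM in shControl and at 19.5 and 15.9 CPM in shTFE3, with a log2 fold change of -0.39 (SE 0.102, adjusted p = 0.00655, edgeR). Neither overlapped between arms. ERO1A was not called without shControl 2, shTFE3 1 or shTFE3 2, and ERO1B was not called without shTFE3 2 (adjusted p = 0.164) or by DESeq2 (adjusted p = 0.0926).

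P4HB was the exception among these enzymes. It encodes PDI itself, which is also the beta subunit of collagen prolyl 4-hydroxylase. It stood at 1641 and 1643 CPM in shControl and at 1701 and 1773 CPM in shTFE3. Both knockdown libraries lay above both controls, but the log2 fold change of 0.08 was not called (SE 0.051, adjusted p = 0.281, edgeR), with a 95% interval of -0.03 to 0.19. P4HB held 1642 of the 3553 CPM of these 7 enzymes in shControl, and their summed level in shTFE3 was 93.1% of the control mean.

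Placed by level, the falls reached the most abundant transcripts. The 9 members above 80 CPM per kb of exon in shControl were CALR, P4HB, CANX, HSPA5, HSP90B1, PDIA4, PDIA3, PPIB and PDIA6, from 365 down to 87.2, and all but P4HB and CANX fell. At the other end, ERN1 at 2.61, CRELD2 at 4.27 and ERO1B at 4.32 CPM per kb were the lowest tested, and among them ERO1B fell. The SE lay between 0.051 and 0.060 in the 9 abundant members and between 0.087 and 0.102 in these lowest ones. Calls are therefore made more readily among the former, and shares of all genes at either level were not computed.

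**Figure D4:**
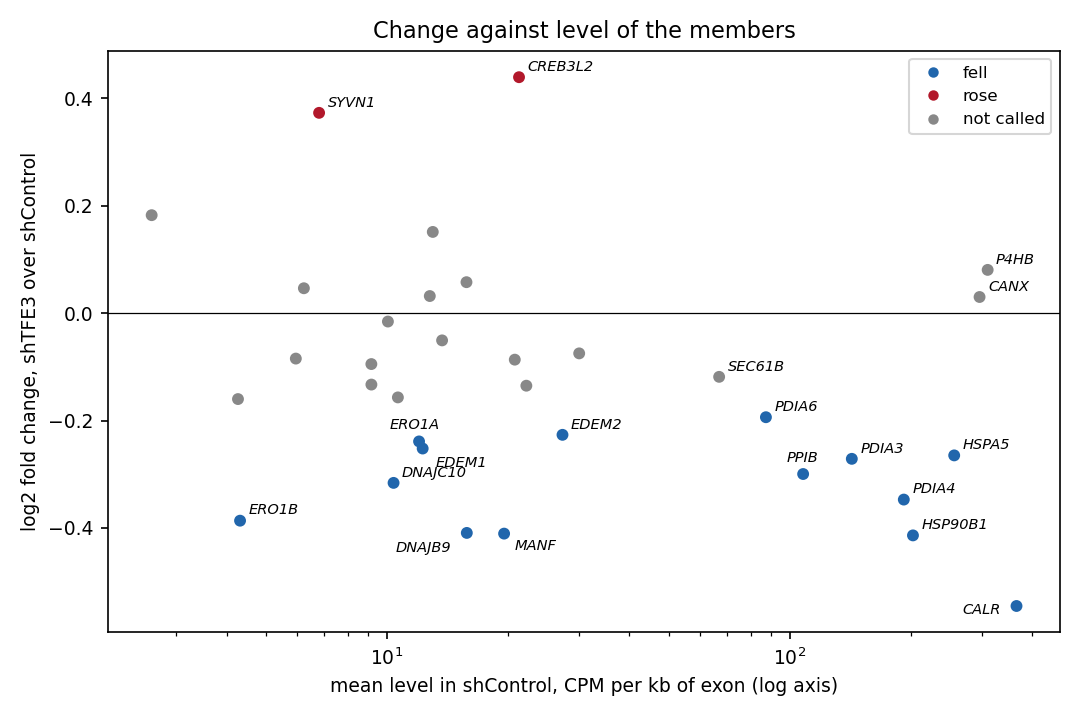
Log2 fold change (shTFE3 over shControl, y axis) against the mean shControl level in CPM per kb of exon (log x axis) for the 34 tested members, coloured by call. At the right, 7 abundant genes lie between -0.55 (CALR) and -0.19 (PDIA6), with P4HB at 0.08 and CANX at 0.03 above them.

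The degradation branch was mixed. Of 9 genes 8 were tested, 2 fell, 1 rose and 5 were not called, at a median of -0.09 on the log2 scale. EDEM1 and EDEM2 belong to the family that trims mannose from glycoproteins and so marks them for removal. EDEM1 stood at 82.0 and 83.8 CPM in shControl and at 69.2 and 70.0 CPM in shTFE3, with a log2 fold change of -0.25 (SE 0.064, adjusted p = 0.00498, edgeR). EDEM2 stood at 54.1 and 50.6 CPM in shControl and at 43.6 and 45.9 CPM in shTFE3, with a log2 fold change of -0.23 (SE 0.073, adjusted p = 0.0267, edgeR). The arms were separate for both genes. Still, EDEM1 was not called without shControl 2 or either shTFE3 library (adjusted p between 0.0571 and 0.0776), nor EDEM2 without shControl 1 or either shTFE3 library, by DESeq2 or on library totals alone. The third relative, EDEM3, had a log2 fold change of -0.09 and was not called.

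SYVN1 (HRD1), the ubiquitin ligase at the centre of ERAD, went the other way (ENSG00000162298, chr11:65121780-65134533). It stood at 35.7 and 38.9 CPM in shControl and at 47.5 and 49.2 CPM in shTFE3. It rose by 0.37 on the log2 scale (SE 0.076, adjusted p = 0.000693, edgeR), and the call was lost without shTFE3 2 (adjusted p = 0.0798). A share of 10.1% of its exon bases overlaps FAU, MRPL49 and a miRNA gene, and which strand was counted is not given in the sources used here. Larger shares overlap other genes in PPIB (27.2%), PDIA6 (25.2%) and PDIA3 (18.9%), which fell. The same holds for DNAJB11 (23.2%) and EIF2AK3 (15.1%), which were not called. SEL1L, the partner that holds SYVN1 in its complex, stood at 118 and 127 CPM in shControl and at 128 and 122 CPM in shTFE3. The arms overlapped, with a log2 fold change of 0.03.

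HERPUD1, a stress-induced scaffold of the same complex, stood at 94.9 and 119 CPM in shControl and at 95.6 and 106 CPM in shTFE3. Its controls lay 0.33 apart on the log2 scale, more than the difference between arms of -0.09. It was called without shControl 1 (-0.24, adjusted p = 0.0326, edgeR) and stood at 0.085 without shControl 2. DERL1 and DERL2, channel components of the complex, had log2 fold changes of 0.06 and -0.08 and were not called. DERL3, their stress-inducible relative, held 7 and 6 counts in the controls and 5 and 11 counts in the knockdown libraries and was too low to test. Moreover, 77% of its exon bases lie opposite SMARCB1.

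Entry and exit were each represented by 1 gene. SEC61B, a subunit of the channel through which chains enter, stood at 81.8 and 77.1 CPM in shControl and at 70.1 and 76.3 CPM in shTFE3, with a log2 fold change of -0.12 that was not called. SEC24D, a cargo-binding subunit of the COPII coat that buds export vesicles, stood at 127 and 131 CPM in shControl and at 141 and 146 CPM in shTFE3. Both its knockdown libraries were higher, at a log2 fold change of 0.15 (adjusted p = 0.0626, edgeR), and it was called on library totals alone and with a filter of at least 50 counts.

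None of the sensors was called. ERN1, which encodes IRE1, stood at 26.2 and 30.5 CPM in shControl and at 32.4 and 31.9 CPM in shTFE3, with a log2 fold change of 0.18 (SE 0.087, adjusted p = 0.137, edgeR). Its arms did not overlap, but the controls lay 0.22 apart on the log2 scale. EIF2AK3, which encodes PERK, stood at 31.1 and 36.6 CPM in shControl and at 35.1 and 34.7 CPM in shTFE3, with a log2 fold change of 0.05 (SE 0.085, adjusted p = 0.752, edgeR). ATF6 stood at 80.3 and 78.4 CPM in shControl and at 79.4 and 77.6 CPM in shTFE3, with a log2 fold change of -0.02 (SE 0.064, adjusted p = 0.897, edgeR). Arms overlapped for both genes. The 95% intervals ran from 0.003 to 0.36 for ERN1, from -0.13 to 0.22 for EIF2AK3 and from -0.15 to 0.12 for ATF6.

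Total XBP1 transcript, itself a target of ATF6, stood at 85.1 and 96.6 CPM in shControl and at 83.8 and 88.8 CPM in shTFE3. The arms overlapped, with a log2 fold change of -0.07 (SE 0.068, adjusted p = 0.479, edgeR) and a 95% interval of -0.22 to 0.07. CREB3L2 (BBF2H7) was the member that rose most. It encodes a membrane-bound transcription factor built like ATF6, known in cartilage for driving COPII genes such as SEC23A (ENSG00000182158, chr7:137874979-138002067). It stood at 183 and 191 CPM in shControl and at 254 and 253 CPM in shTFE3. Both knockdown libraries were far above the controls, with a log2 fold change of 0.44 (SE 0.056, adjusted p = 1.68e-06, edgeR), and it was called in all 12 alternative fits. SEC23A itself stood at a mean of 169 CPM in shControl and 165 CPM in shTFE3 and was not called.

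The promoter elements were then set beside the changes. Of the 11 members with an ERSE or ERSE-II, 5 fell and none rose, at a median of -0.16 on the log2 scale. Of the 20 matched and tested members without either, 8 fell and 2 rose, with a median of -0.11. The 19 tested genes outside the member list that also hold an element had a median of 0.02, and 2 of them fell and 2 rose. By comparison, 13.8% of the 11222 other tested genes with a window and no element fell. DNAJC10 and HYOU1 held the UPRE core TGACGTGG, found in 0.729% of all windows, and that of HYOU1 overlaps its distal ERSE-II. The E-box CACGTG, whose letters lie within the sites that MiT/TFE factors are known to bind, stood in CANX, DNAJB9, HERPUD1 and HSP90B1, and in 7.26% of all windows. Among those 4 genes DNAJB9 and HSP90B1 fell, beside 11 of the 27 matched and tested members without the E-box (40.7%). Outside the member list 16.9% of tested genes with the E-box fell, and 13.3% of those with a window and no E-box. Of the longer forms, TCACGTGA stood in no member window and in 0.98% of all windows, and GTCACGTG stood in CANX, 30 to 37 bases after the start, and in 2.4% of all windows. These matches describe letters in a short window and not binding.

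The other machinery of the early secretory pathway was read from lists of its components, to place the chaperones beside it. In 6 further ER lists 130 of 133 genes were tested, with a median log2 fold change of 0.05. Of these 28 rose (21.5%) and 10 fell (7.69%), beside 10.3% and 12.9% of all tested genes. Fits with 1 library left out called fewer rises and falls in these lists, as they called fewer genes over all tested genes. DESeq2 called 14 rises and 8 falls among 132 of these genes, beside 743 rises and 1197 falls among the 15950 genes tested by edgeR. EdgeR with no filter called 1 rise and 1 fall in these lists. In each of the 6 lists the number of rises was 1 or 0 without shTFE3 2.

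The COPII coat and cargo receptors, which carry folded proteins out of the ER, had 7 rises and 1 fall among 23 genes and a median of 0.08. SEC31A, the outer coat subunit, stood at 279 and 292 CPM in shControl and at 371 and 357 CPM in shTFE3, with a log2 fold change of 0.35. SAR1B, the GTPase that starts coat assembly, had a log2 fold change of 0.41, and MIA3 (TANGO1), the collagen cargo receptor, one of 0.30. Both rose, and of the 3 genes SEC31A kept its call with each library left out. The KDEL receptors, which return lumenal chaperones from the Golgi, were not called, with log2 fold changes of 0.08 for KDELR1, -0.05 for KDELR2 and 0.03 for KDELR3.

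The translocon, signal peptidase and signal recognition particle had 5 rises and 3 falls among 23 genes, with TRAM1 at -0.43, SRP68 at 0.30 and SPCS3 at -0.30. N-glycosylation had 4 rises and 1 fall among 23 genes, with ALG3 at 0.32, OST4 at -0.26 and RPN2 at 0.19. The remaining foldases and co-chaperones had 4 rises and 2 falls among 26 genes and a median of -0.01. Among them CLGN, a calnexin homologue known from testis, rose by 0.51, PPIC, a cyclophilin, fell by 0.35 and TXNDC11 rose by 0.32 on the log2 scale. TXNDC11 was not called by DESeq2 or without either shTFE3 library, and PPIC was not called without shTFE3 2. The remaining ERAD genes had 5 rises and 2 falls among 24, with RNF185 at -0.51, UFD1 at 0.35 and OS9 at 0.24. The remaining sensors and site proteases had 3 rises and 1 fall among 11, with ATF6B at 0.25, WFS1 at 0.24 and TMBIM6 at 0.17, and ATF6B and WFS1 were not called by DESeq2.

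**Figure D5:**
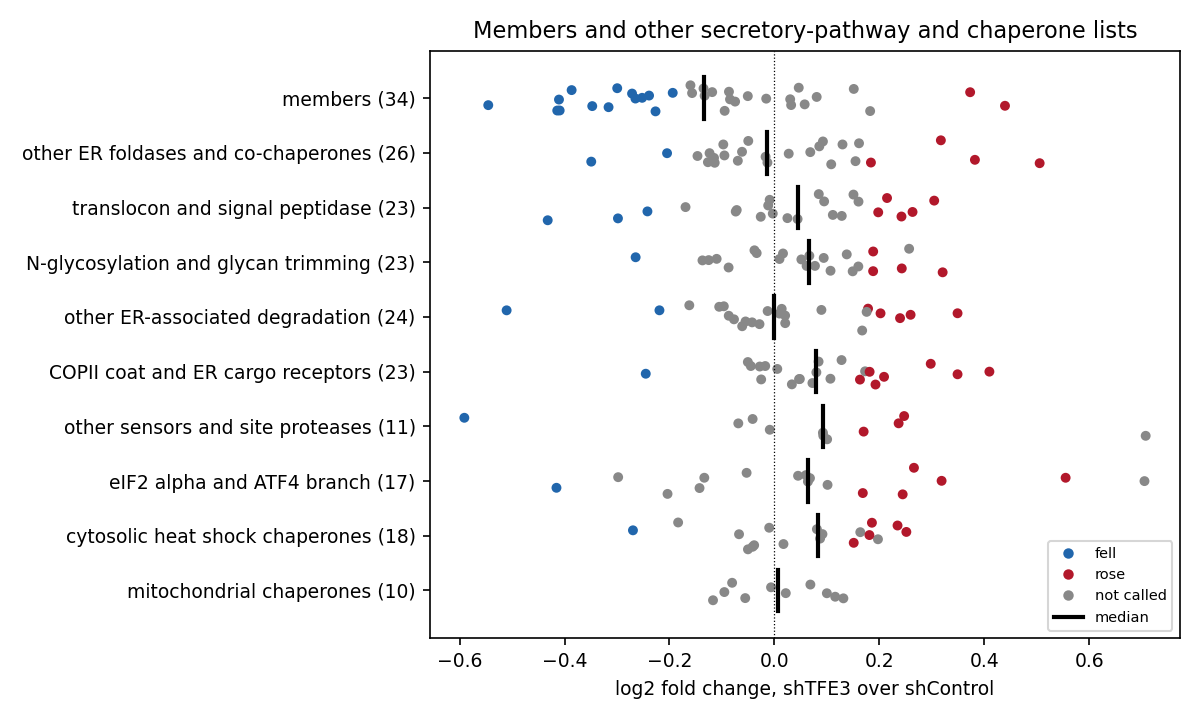
Log2 fold changes (shTFE3 over shControl, x axis) of the tested members and of 9 further lists (rows, number of tested genes in brackets), 1 point per gene coloured by call, with black bars at the medians. The members' median of -0.13 is the lowest of the rows, and the medians of the other lists lie between -0.01 and 0.09.

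The branch below PERK, in which phosphorylated eIF2 alpha favours translation of ATF4, had 5 rises and 1 fall among 17 genes and a median of 0.06. The rises numbered 3, 2, 1 and 1 without shControl 1, shControl 2, shTFE3 1 and shTFE3 2, and 2 by DESeq2. VLDLR fell by 0.42, CEBPB rose by 0.32 and PPP1R15B, which directs a phosphatase to eIF2 alpha, rose by 0.24 on the log2 scale. The stress markers ATF4 and DDIT3 (CHOP) had log2 fold changes of -0.14 and -0.30 and were not called, and they are named although the naming rule did not choose them. The arms overlapped for DDIT3, with 222 and 254 counts in the controls and 164 and 242 counts in the knockdown libraries.

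The authors' deposited table of changed genes holds 546 genes, none of them among the 35 members. Its smallest absolute log2 fold change is 0.585, and the largest change of a member computed here was that of CALR, -0.55. TFE3 is in the authors' deposited table with a log2 fold change of -0.92.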

How the data were processed

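Reads were trimmed with Trim Galore, aligned with STAR to hg38 and counted with featureCounts, per the submitters' processing notes, which also name DESeq2 and give no versions. Annotation and strand setting were not given in the sources used here. The deposited count table holds raw counts per Ensembl gene for the 4 libraries. The authors' deposited comparison table gives a mean normalized signal, log2 fold changes, a test score and p-values for selected genes.

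Counts were fitted with edgeR 4.0.16 in R 4.3.3: TMM factors, filterByExpr, the arm as the only term, the quasi-likelihood test and Benjamini-Hochberg adjustment over all 15950 tested genes at 0.05. The filter kept 99.8% of counts. The coefficient of variation between replicates beyond counting noise, from edgeR's common dispersion over all genes, was 4.16%. CPM values use the TMM factors, and CPM per kb uses GENCODE 29 exon lengths, whose gene coordinates on GRCh38 are printed. Alternatives were other normalizations and filters, DESeq2 1.42.0, limma-voom (limma 3.58.1), a replicate term and each library left out. The procedure was tested on simulated data.

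The members and lists were chosen with earlier results of these data known. Values are given for every called member, HSPA5, XBP1 and the sensors, and for up to 3 called genes of each further list by smallest p. SEC23A, the KDEL receptors, ATF4 and DDIT3 were named after their values were seen. RefSeq promoters matched 31 members.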

Additional observations from a re-analysis of the deposited data

How the results depend on the processing

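The 14 falls and 2 rises among the members became 0 falls and 1 rise (CREB3L2) with no filter on low counts, where 31954 genes were fitted and the prior degrees of freedom dropped from 22.4 to 2.09; the 15 lost calls had adjusted p between 0.0583 and 0.32, and at an unadjusted p under 0.05 there were 16 falls and 3 rises. DESeq2, which with its own filtering gave 12 falls and 2 rises, lost ERO1B and EDEM2. Leaving out 1 library gave 6 to 13 falls and 1 to 2 rises, and medians between -0.165 and -0.128. On library totals alone the median of all genes moved to 0.038 and that of the members to -0.098, with 13 falls and 3 rises. All 16 called members kept their sign in the 12 alternatives. Signs changed only among members that were not called: ATF6 was 0.021 on library totals, and with 1 library left out ATF6 ranged from -0.035 to 0.00034, CANX from -0.011 to 0.068, EIF2AK3 from -0.068 to 0.167, XBP1 from -0.165 to 0.017, DNAJC3 from -0.152 to 0.044, SDF2L1 from -0.391 to 0.088, HERPUD1 from -0.244 to 0.085 and SEL1L from -0.024 to 0.086. The TFE3 call held in every alternative. Of all tested genes 3709 were called, against 384 with no filter, 1940 by DESeq2 and 2514, 2502, 1520 and 1043 without shControl 1, shControl 2, shTFE3 1 and shTFE3 2.

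Over all tested genes the deviations of same-numbered libraries from their arm means had a correlation of -0.0292, so the numbers were not taken as a pairing. That value does not show whether the members share a replicate effect. Among the members replicate 2 was higher than replicate 1 in 82.4% of genes in shControl and in 70.6% in shTFE3. With the replicate block the members again gave 14 falls and 2 rises, with a median of -0.137, and no call of a member changed. The 2 libraries per arm limit every statement, and the labels do not separate the hairpin from other differences between the cultures.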

Other observations

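Chaperones of other compartments were read beside those of the ER lumen, and the difference between the lists was not tested. Of 18 cytosolic heat shock chaperones 5 rose and 1 fell, at a median of 0.08 on the log2 scale. The rises numbered 1 without shControl 1, 3 without shTFE3 1 and 0 without shTFE3 2, and 2 by DESeq2. HSPA8 (HSC70), the constitutive cytosolic HSP70, was the gene that fell, from 1517 and 1625 CPM in shControl to 1203 and 1404 CPM in shTFE3. Its log2 fold change of -0.27 (adjusted p = 0.00197, edgeR) compares with -0.26 for HSPA5, and it was not called by DESeq2 (adjusted p = 0.14) or without shControl 2 or shTFE3 1 (adjusted p 0.0571 and 0.135). FKBP4 rose by 0.23 and BAG3 by 0.25 on the log2 scale, and neither was called without shTFE3 2. BAG3 was also not called by DESeq2 or without shControl 1.

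None of the 10 mitochondrial chaperones and proteases was called by edgeR or by DESeq2, and 0 had an unadjusted p under 0.05 by either tool. The median of their log2 fold changes was 0.008 and the extremes were -0.12 and 0.13. Their summed level was 2686 and 2678 CPM in shControl and 2556 and 2714 CPM in shTFE3, so that the arms overlapped.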
